A study of Zea mays with 20 samples.

Results

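RIL54 and RIL99 are maize (Zea mays) recombinant inbred lines from the cross of the inbreds F288 and F271, and gene expression in their ear internodes was compared at 2 stages. The arrays were chosen by their titles, 4 of RIL54 and 4 of RIL99, which makes 8 of the 20 arrays of the study. Each line had 2 arrays at emerging tassel and 2 at early silking. At all 4 loci of the study, which bear on the lignin of the stem and on how well its walls are degraded, both lines carry the favorable allele, so the comparison addresses how far lines alike at these loci differ through the rest of the segregating genome. The ear internode is the stem segment that bears the ear, and the plants were field-grown, irrigated and given no treatment. Each line is a single genotype, and the labels do not say whether the arrays of a line and stage came from separate plants, plots or extractions. The p-values therefore measure the spread between arrays, which may be technical. In whole internodes, fewer cells of a type and less RNA per cell cannot be told apart.

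A recombinant inbred line is a fixed mosaic of its parents' genomes, so at any gene a pair of such lines either shares a parental allele or carries different ones. The internode first elongates and then lays down thick, lignified secondary walls around its vascular bundles. Lignin is built from phenylalanine through the phenylpropanoid pathway. Phenylalanine ammonia-lyase opens the pathway, 4-coumarate:CoA ligase activates its acids, cinnamoyl-CoA reductase and cinnamyl alcohol dehydrogenase make the monolignols, and laccases and peroxidases couple these in the wall.

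All values are log2 expression per probe set, a group of short probes on the array that stands for a transcript. A low value can mean little RNA or an allele that the probes bind poorly, and which of these applied was not tested. A probe set was tested where its log2 value was above 5 on at least 2 of the 20 arrays, which left 11033 of 17555. It is called where the Benjamini-Hochberg adjusted p of limma was under 0.05. Replicate arrays correlated at 0.962 in RIL54 at both stages, and at 0.973 (tassel) and 0.985 (silking) in RIL99. The median SD between replicates was 0.22 and 0.205 in RIL54 and 0.147 and 0.101 in RIL99. The tassel replicates of RIL118, a line that enters the shared estimate of spread and the description of the other lines, correlated at 0.934. Without RIL118 the calls reported below numbered 1849 over both stages, 1912 at tassel, 598 at silking and 308 for the interaction. RNA amounts overlapped between the lines, but 1 tassel array of RIL54 came from 417.25 ng against 53.001 to 140.82 ng for the other 7. Between the stages they did not overlap, at 113.41 to 417.25 ng at tassel and 53.001 to 81.336 ng at silking. The 5′ minus 3′ signal of control transcripts also overlapped, at -5.03 to -3.73 in RIL54 and -4.78 to -3.94 in RIL99. Of the markers of a lignifying stem, the mean log2 level was 12.3 to 13.9 for the phenylpropanoid entry genes and 9.25 to 11.8 for secondary-wall cellulose. Lignin oxidases were lower, with means of 4.44 to 5.25 and 3 of 6 probe sets under 5 on all 8 arrays. Of 16 probe sets for kernel proteins 15 were under 5 on all 8 arrays, while 7 of 11 for meristem regulators and 7 of 12 for epidermis and cuticle were. Photosystem and light-harvesting genes were well expressed, with means of 10.9 to 11.2 in RIL54 and 11.3 to 11.5 in RIL99, which did not overlap. The means of C4 and Calvin cycle genes, which are green tissue markers too, did overlap, at 7.89 to 8.95 in RIL54 and 8.33 to 9.1 in RIL99. The part of green tissue in the other differences was not tested.

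Over both stages RIL54 and RIL99 differed at 1761 of 11033 probe sets (16.0%), 881 higher (7.99%) and 880 lower (7.98%) in RIL54. The median difference of all tested probe sets was 0.01, with a median standard error (SE) of 0.18. Of those called, 436 were at least 2-fold higher and 377 at least 2-fold lower, and 43 and 35 were at least 16-fold apart. The 2 RIL54 arrays lay above the 2 RIL99 arrays at both stages for 623 of the higher calls and below them for 727 of the lower ones, against 10.1% and 11.9% of all tested probe sets with these patterns. The platform annotation lists a single gene for 960 of the tested probe sets, of which 148 were called (15.4%), so most differences between the lines lie in probe sets that cannot be named here. The genes named below were the 10 largest differences in each direction among called probe sets with 1 listed gene whose arrays were apart at both stages.

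**Figure D1:**
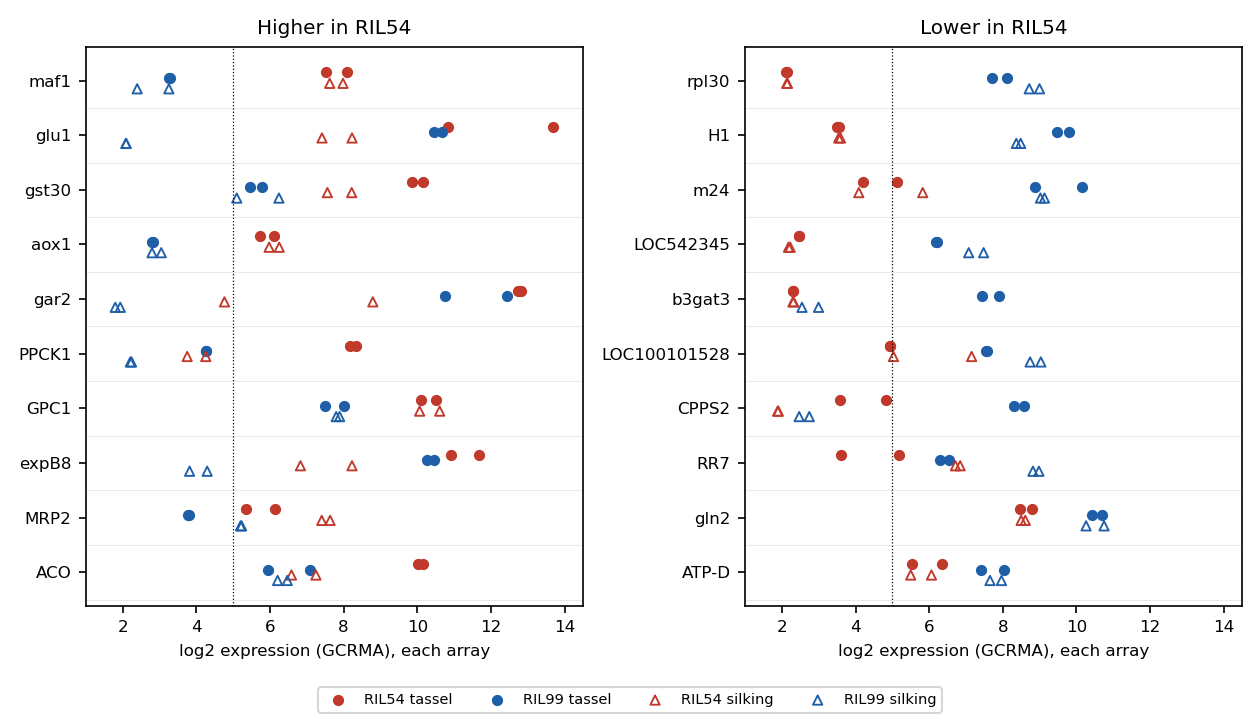
Log2 expression (x axis, log2 units) on each of the 8 arrays for the 10 genes named as higher and the 10 named as lower in RIL54, with RIL54 in red, RIL99 in blue, filled circles for emerging tassel and open triangles for early silking. The dotted line marks 5, the value of the filter; rpl30 sat at 2.11 to 2.15 on all 4 RIL54 arrays and at 7.71 to 9.00 on all 4 RIL99 arrays.

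The gene with the largest difference among those higher in RIL54 was maf1 (gene 541767, chromosome 9). It read 7.52 and 8.10 at tassel and 7.98 and 7.62 at silking in RIL54, against 3.29, 3.27, 3.25 and 2.39 in RIL99. All 4 RIL54 arrays were high and all 4 RIL99 arrays low, with a difference of 4.76 (SE 0.22, adjusted p = 9.78e-09). aox1, an alternative oxidase of the mitochondrial respiratory chain (gene 542073, chromosome 5), read 5.73 and 6.11 at tassel and 6.25 and 5.97 at silking in RIL54. In RIL99 it read 2.80 and 2.81, then 3.04 and 2.79, so the lines were apart by 3.15 (SE 0.16, adjusted p = 2.99e-08) with no overlap and hardly any change with stage. The probe set of GPC1, a cytosolic glyceraldehyde-3-phosphate dehydrogenase (gene 542367, chromosome 4), gave 10.10, 10.51, 10.61 and 10.06 in RIL54 and 7.49, 8.01, 7.89 and 7.80 in RIL99. This is a 5.75-fold difference (2.52 on the log2 scale, SE 0.19, adjusted p = 1.08e-06), but the other probe set of GPC1 did not show it, with a difference of -0.19 at tassel and 0.06 at silking (adjusted p = 0.744 and 0.993). MRP2, an ABC transporter (gene 542680, chromosome 7), read 6.14 and 5.34 at tassel and 7.63 and 7.40 at silking in RIL54, and 3.76, 3.81, 5.23 and 5.20 in RIL99. It rose with stage in both lines and kept a difference of 2.13 (SE 0.18, adjusted p = 4.85e-06).

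Other genes higher in RIL54 had differences of unequal size at the 2 stages, but the interaction was not called for glu1, PPCK1 or gst30 (adjusted p = 0.158, 0.286 and 0.256). glu1, a β-glucosidase that acts on benzoxazinoid and cytokinin glucosides (gene 542414, chromosome 10), read 8.23 and 7.41 at silking in RIL54 and 2.08 and 2.09 in RIL99. At tassel it read 10.85 and 13.69 against 10.46 and 10.68, where the difference of 1.70 was not called (adjusted p = 0.255). At silking the difference was 5.73 (adjusted p = 0.00255), and RIL99 lay at the lower end of the scale there. With low values raised to 5 the silking call of glu1 was lost (2.82, adjusted p = 0.129). PPCK1, the kinase that phosphorylates phosphoenolpyruvate carboxylase (gene 606483, chromosome 5), was at 8.16 and 8.33 at tassel in RIL54 against 4.26 and 4.26 in RIL99, and at 4.25 and 3.75 against 2.20 and 2.24 at silking. gst30, a glutathione transferase (gene 541841, chromosome 1), was at 9.86 and 10.15 against 5.77 and 5.45 at tassel, and at 8.22 and 7.56 against 6.24 and 5.10 at silking. Their differences over both stages were 2.88 (SE 0.47, adjusted p = 0.00106) for PPCK1 and 3.31 (SE 0.44, adjusted p = 0.000223) for gst30. ACO, an ACC oxidase that makes ethylene (gene 542136, chromosome 10), read 10.02 and 10.17 in RIL54 and 7.08 and 5.94 in RIL99 at tassel. At silking its arrays were close, at 6.58 and 7.25 against 6.47 and 6.21. The tassel difference of ACO was 3.59 (adjusted p = 0.000175) and the silking one 0.58 (adjusted p = 0.709). The interaction of ACO was -3.01 (adjusted p = 0.0322), and it was lost without any 1 of 6 arrays, all but the tassel replicate 1 of each line (0.0533 to 0.122).

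The remaining genes named as higher in RIL54 rest on less. gar2 (gene 541620, chromosome 10) differed by 3.05 (SE 0.89, adjusted p = 0.0349), but its silking arrays in RIL54 were far apart, at 4.76 and 8.79. The gar2 call was lost without either RIL54 tassel array, either RIL99 silking array, RIL99 tassel replicate 2 or RIL54 silking replicate 2 (adjusted p = 0.068 to 0.125), and also without a filter, with low values raised to 5, and with the 8 arrays alone (0.0725 to 0.196). expB8, a β-expansin that loosens cell walls (gene 542496, chromosome 9), was called by both of its probe sets, at 2.20 (adjusted p = 0.0267) and 2.12 (adjusted p = 0.00819). The first of these calls was lost without any 1 of the 4 RIL99 arrays, without RIL54 tassel or silking replicate 2 (0.0581 to 0.0905), and without a filter or with low values raised to 5 (0.0537 to 0.0573). The second held in each of the 19 alternative settings. At silking it read 9.00 and 10.65 in RIL54 against 5.17 and 6.57 in RIL99, and at tassel 11.65 and 12.38 against 11.97 and 11.49, with an interaction of 3.67 that was not called (adjusted p = 0.0639).

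Among the genes lower in RIL54, rpl30, a protein of the large cytosolic ribosomal subunit (gene 541668, chromosome 8), differed most. It read 2.14, 2.11, 2.13 and 2.15 in RIL54, the lower end of the array's scale, and 7.71 and 8.11 at tassel and 8.72 and 9.00 at silking in RIL99. The difference was -6.25 (SE 0.11, adjusted p = 6.2e-13). A probe set of H1, a linker histone (gene 542385, chromosome 5), read 3.55, 3.50, 3.54 and 3.59 in RIL54 and 9.48, 9.80, 8.49 and 8.37 in RIL99, a difference of -5.49 (SE 0.12, adjusted p = 4.79e-12). It is a probe set that may cross-hybridise by its name, and 1 of the other 2 of H1 had the same sign and 1 the opposite sign. LOC542345 (chromosome 8) read 2.47, 2.48, 2.18 and 2.22 in RIL54 against 6.21, 6.19, 7.48 and 7.07 in RIL99, a difference of -4.40 (SE 0.24, adjusted p = 4.98e-08). m24, the MADS-box factor zmm24 (gene 542038, chromosome 1), read 4.19 and 5.12 at tassel and 5.83 and 4.09 at silking in RIL54. In RIL99 it read 8.86 and 10.16, then 9.13 and 9.02, all above the RIL54 arrays (-4.49, SE 0.45, adjusted p = 1.94e-05). With low values raised to 5, differences that reach the lower end of the scale shrank but were still called: maf1 to 2.81, glu1 to 2.26, aox1 to 1.02, PPCK1 to 1.62, rpl30 to -3.38, LOC542345 to -1.74 and b3gat3 to -1.33.

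gln2, a glutamine synthetase that assimilates ammonium (gene 542400, chromosome 1), read 8.47, 8.80, 8.50 and 8.61 in RIL54 and 10.69, 10.42, 10.75 and 10.26 in RIL99. The 2 lines were each steady over the stages, and RIL99 was 3.82-fold higher (-1.94, SE 0.16, adjusted p = 3.98e-06). RR7, a type-A response regulator induced by cytokinin (gene 541633, chromosome 4), read 5.19 and 3.60 at tassel and 6.72 and 6.84 at silking in RIL54, against 6.53, 6.31, 8.82 and 8.98 in RIL99. It rose with stage in both lines and stayed lower in RIL54 (difference -2.07, SE 0.39, adjusted p = 0.00308). b3gat3 (gene 606447) was at 2.30 to 2.32 on the 4 RIL54 arrays, and in RIL99 at 7.90 and 7.43 at tassel and 2.55 and 3.0 at silking. LOC100101528 (chromosome 2) differed by -2.70 (SE 0.37, adjusted p = 0.000298) and ATP-D (gene 542402) by -1.90 (SE 0.43, adjusted p = 0.00992). CPPS2, an ent-copalyl diphosphate synthase at the start of defence diterpenoid synthesis (gene 542165, chromosome 1), was at 4.82 and 3.57 in RIL54 and 8.58 and 8.31 in RIL99 at tassel. At silking CPPS2 was under 3 on all 4 arrays of both lines. Its difference over both stages of -2.48 (adjusted p = 0.0158) was lost without RIL54 tassel replicate 2 or RIL99 silking replicate 2 (0.0541 to 0.0617).

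Part of the difference between the lines was one of detection, that is, of signal at the probes. Whether the RNA itself was absent was not tested. For 20 probe sets all 4 RIL54 arrays were above 5 and all 4 RIL99 arrays under 3, and for 27 it was the reverse, 47 in all from 43 transcript clusters. The detected values ran up to 12.12 in RIL54 and 11.69 in RIL99. These probe sets were chosen by their values, so the counts are a description. The genes listed for them are rpl30 and LOC542345, and the others have no listed gene. The largest differences of the whole table are among them: Zm.13029.1.A1_at (9.23, SE 0.88), Zm.7397.1.A1_at (9.08, SE 0.12) and, lower in RIL54, Zm.14906.1.A1_s_at (-8.39, SE 0.73) and Zm.13306.1.A1_at (-7.09, SE 0.11). Zm.7397.1.A1_at read 11.00, 11.07, 12.00 and 11.92 in RIL54 and 2.37 to 2.44 in RIL99. Zm.13306.1.A1_at read 2.10 to 2.15 in RIL54 and 9.55, 9.88, 8.66 and 8.78 in RIL99, and with low values raised to 5 its difference was -4.22.

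The other 3 lines of the cross, RIL39, RIL71 and RIL118, were also on or off at most of these probe sets. The alleles of these lines at the loci of the study are not given here, and they need not match those of RIL54 and RIL99. RIL39 was on for 11 and off for 9 of the 20 detected in RIL54, and on for 9 and off for 15 of the 27 detected in RIL99. RIL71 was on for 13 and off for 5 of the former and on for 7 and off for 19 of the latter. RIL118 was on for 5 and off for 8, and on for 11 and off for 10, and its arrays were mixed or between 3 and 5 for the other 13. Its tassel replicates lay over 2 log2 units apart at 4 of the 47 probe sets; at Zm.13029.1.A1_at they read 2.36 and 8.46. rpl30 was on in RIL39 (7.75 to 8.68) and off in RIL71 (2.11 to 2.17) and RIL118 (2.08 to 2.13), and LOC542345 was on in all 3. Every other line was cleanly on or off for 29 of the 47, and all 3 were off for 7 and on for 3.

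**Figure D2:**
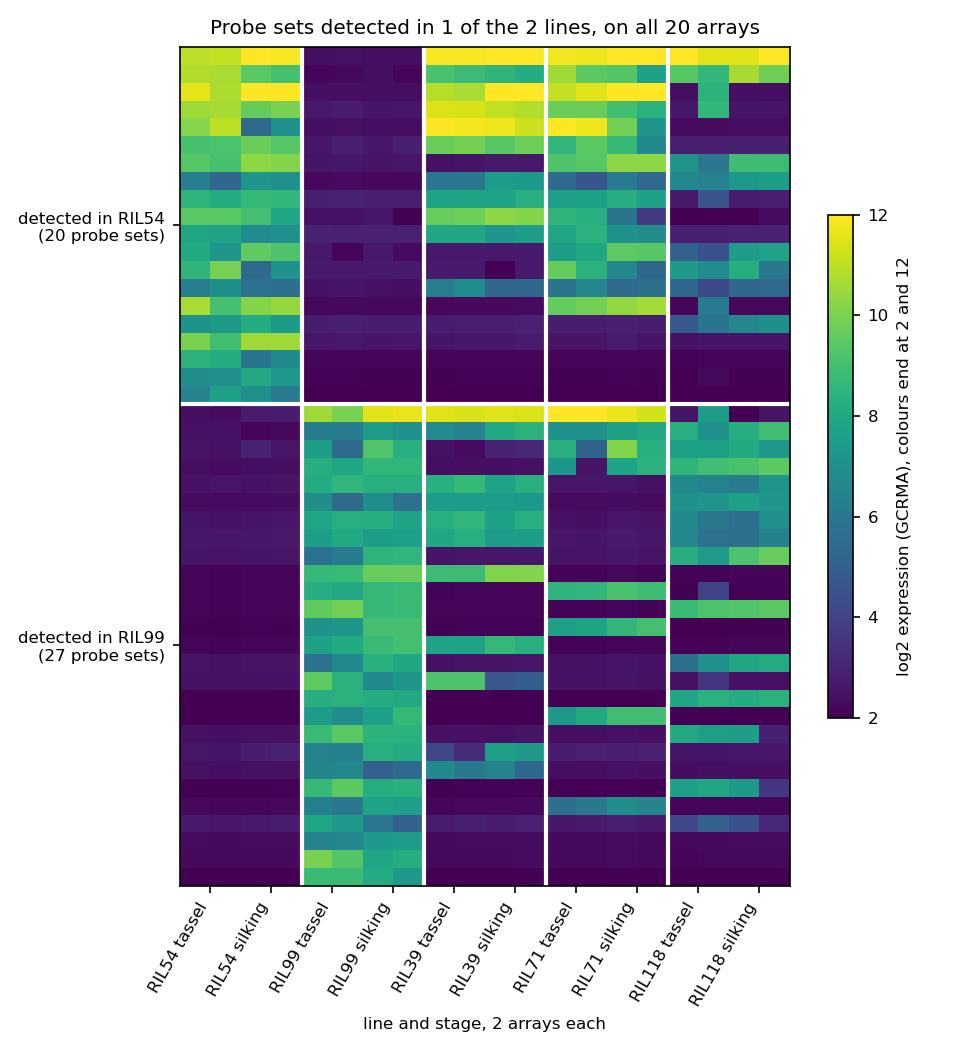
Log2 expression (colour) of the 47 probe sets detected in 1 of the 2 lines (rows) on all 20 arrays (columns, 2 for each line and stage). In the upper 20 rows RIL54 is bright and RIL99 dark, in the lower 27 the reverse, and RIL39, RIL71 and RIL118 are each bright in some rows and dark in others.

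The same mixture held for larger sets. For 262 called probe sets at least 4-fold apart, with arrays apart at both stages, the mean of RIL39 was nearer to RIL54 at 163, that of RIL71 at 169 and that of RIL118 at 118. All 3 lines were nearer to RIL54 at 46, all 3 nearer to RIL99 at 28, and they were divided at 188. Each mean was assigned to 1 of the 2 lines even where it lay between them, so these counts are a description. The mean was within 1 log2 unit of the nearer line at 216 probe sets in RIL39, 224 in RIL71 and 202 in RIL118. Of the named genes, maf1 was high in RIL39 (7.99 to 8.22) and RIL118 (7.63 to 7.91) as in RIL54, and low in RIL71 (2.34 to 3.28) as in RIL99. The aox1 level of RIL54 had no counterpart, with RIL39, RIL71 and RIL118 at 2.54 to 3.44, and the b3gat3 level of RIL99 at tassel had none either, with those lines at 2.26 to 2.33.

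Among the lignin genes, BM1, the cinnamyl alcohol dehydrogenase gene of a brown midrib locus (gene 542663, chromosome 5), was lower in RIL54. It read 13.63 and 13.68 at tassel and 12.95 and 13.28 at silking in RIL54, and 14.05, 14.26, 13.62 and 13.61 in RIL99. The arrays did not overlap within a stage, and the difference was -0.50 (SE 0.10, adjusted p = 0.00351), or 1.42-fold. No other named member of the pathway was called over both stages. pal3, a phenylalanine ammonia-lyase (gene 542258), read 13.81, 13.73, 13.33 and 13.82 in RIL54 and 13.93, 14.01, 13.83 and 13.88 in RIL99 (-0.24, SE 0.11, adjusted p = 0.162). 4CL (gene 542166) read 13.31, 13.28, 11.32 and 12.80 against 13.81, 13.67, 12.29 and 12.45 (-0.38, SE 0.28, adjusted p = 0.419). The low RIL54 silking array of 4CL is replicate 1, and without replicate 2 both pal3 and 4CL were called (adjusted p = 0.0263 and 0.0453).

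The cinnamoyl-CoA reductase cncr1 (gene 542463) read 13.98, 13.61, 13.22 and 13.97 in RIL54 and 13.92, 14.02, 13.41 and 13.39 in RIL99, with a difference of 0.01 (SE 0.15, adjusted p = 0.98). The other reductase, ccr2 (gene 542735), was above 3 at tassel only, at 3.33 and 6.29 in RIL54 and 6.69 and 7.34 in RIL99, and its difference of -1.10 (SE 0.74) was not called (adjusted p = 0.361). Of the lignin oxidases, the peroxidase PER42 (gene 100101533) was at -0.73 (SE 0.29, adjusted p = 0.114) and the laccase LAC1 (gene 606456) at -0.32 (SE 0.32, adjusted p = 0.567). The peroxidase pox2 (gene 542571) was lower in RIL54 at tassel, at 3.71 and 3.94 against 5.21 and 5.87 (-1.72, adjusted p = 0.0264), and under 3 on all 4 silking arrays. That call was lost without any 1 of the 4 tassel arrays (0.0503 to 0.169), and over both stages pox2 was called with the 8 arrays alone and without RIL118 (0.0038 to 0.0392) but not otherwise (-0.85, SE 0.33, adjusted p = 0.107). In all 1 of the 8 lignin genes measured differed over both stages, beside 16.0% of all probe sets.

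None of the 6 tested probe sets for secondary-wall cellulose synthesis and none of the 10 for primary-wall synthases was called by limma over both stages or at either (0 and 1 over both stages at an unadjusted p under 0.05), and their median differences over both stages were -0.14 and 0.11, beside 0.01 for all probe sets. At tassel the medians were -0.61 and -0.18, and at silking 0.34 and 0.48. In the expansin and xyloglucan endotransglucosylase list, 2 of 11 probe sets were higher (both of expB8) and 1 lower, beside 7.99% higher and 7.98% lower of all probe sets. The lower one was expB6, a β-expansin (gene 542566, chromosome 1), which read 9.82, 9.72, 4.99 and 6.01 in RIL54 and 11.34, 11.68, 6.82 and 7.63 in RIL99 (-1.73, SE 0.35, adjusted p = 0.0051). Both β-expansins were lower at silking than at tassel in both lines, and the lines differed in opposite directions for them. Of 15 tubulin probe sets 3 were lower and 0 higher, beside 7.98% of all probe sets lower, and the median difference of the 15 was 0.04. All 3 were of β-tubulins, which form the microtubules that guide cellulose deposition. TUBB2 (gene 542380, chromosome 8) read 10.41, 11.14, 8.91 and 9.23 in RIL54 and 12.02, 12.06, 9.42 and 9.40 in RIL99 (-0.81, SE 0.15, adjusted p = 0.00234). tub7 and tub3 differed by -0.46 and -0.42 (adjusted p = 0.0213 and 0.0305). With the 8 arrays alone and with RNA amount as a covariate the tub3 call was lost (0.0716 to 0.104). The tub7 call was lost without any array other than RIL54 tassel replicate 1 and RIL54 silking replicate 2 (0.0562 to 0.0789), and the tub3 call without any other than RIL99 tassel replicate 1 and RIL54 silking replicate 2 (0.0516 to 0.125).

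Aquaporins, channels for water and small solutes, split between the lines. Of 26 tested probe sets 5 were higher and 3 lower in RIL54, beside 7.99% higher and 7.98% lower of all probe sets, with a median difference of -0.07. pip2-5, a plasma membrane aquaporin (gene 542619, chromosome 2), read 7.20, 7.95, 7.04 and 5.70 in RIL54 and 5.17, 5.26, 4.12 and 5.17 in RIL99 (2.04, SE 0.33, adjusted p = 0.00107). TIP2-1, a tonoplast aquaporin (gene 541894, chromosome 4), read 12.91 and 12.32 against 9.97 and 10.62 at tassel, and 10.07 and 9.97 against 10.03 and 9.69 at silking. Its tassel difference was 2.32 (adjusted p = 0.00281), the interaction was not called (adjusted p = 0.089), and the call over both stages was lost without RIL99 tassel replicate 1 or RIL99 silking replicate 2 (0.0579 to 0.0598). TIP4-4 was higher by 1.83 (adjusted p = 0.00296), but it lay near or under 5 throughout, and with low values raised to 5 the difference was 0.17 and not called (adjusted p = 0.0884). The 3 lower probe sets, named after their values were seen, stand for NIP2-1 (-1.88 and -2.11, adjusted p = 0.0258 and 0.0302) and NIP2-3 (-1.10, adjusted p = 0.049), and each was lost in at least 5 of the 8 sets that leave out 1 array (0.0545 to 0.177). None of the 8 probe sets for sucrose metabolism was called by limma, nor at an unadjusted p under 0.05 (0 of 8). The invertase ivr2, which splits sucrose in the vacuole, was at 12.43 to 13.12 on the 4 tassel arrays and at 1.88 to 2.68 on the 4 silking arrays of both lines, a difference of -0.24 (adjusted p = 0.632).

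Of the 5 benzoxazinoid probe sets 2 were higher and 0 lower, beside 7.99% higher and 7.98% lower of all probe sets, with a median difference of 1.44. Besides glu1 this was bx6, a dioxygenase of benzoxazinoid synthesis (gene 541977, chromosome 4), which read 9.40 and 10.39 against 7.86 and 7.02 at tassel, and 7.66 and 7.99 against 7.40 and 7.41 at silking. Its interaction was not called (adjusted p = 0.183), and its call over both stages (1.44, adjusted p = 0.0161) was lost without any of 4 arrays, the tassel replicate 2 of both lines and, from silking, replicate 1 of RIL99 and replicate 2 of RIL54 (0.0507 to 0.0718). The tassel difference of 2.45 (adjusted p = 0.00557) was lost without RIL54 or RIL99 tassel replicate 2 (0.0561 to 0.0608). lox3, a lipoxygenase (gene 542495, chromosome 1), read 7.05 and 7.12 at tassel in RIL54 against 4.27 and 3.69 in RIL99, and 5.97 and 5.67 against 5.47 and 4.73 at silking (1.91 over both stages, SE 0.38, adjusted p = 0.00451). Glutathione transferases, which conjugate reactive compounds, were called in both directions, 3 higher and 3 lower of 16, beside 7.99% higher and 7.98% lower of all probe sets. gst30 is given above; gst5 (gene 542734, chromosome 1) was lower, at 9.58, 9.61, 9.21 and 8.99 in RIL54 against 11.96, 11.88, 9.50 and 9.47 (-1.35, SE 0.21, adjusted p = 0.000694), and GST38 (gene 541847, chromosome 1) as well (-1.80, SE 0.29, adjusted p = 0.00113). The gst5 difference was -2.32 at tassel and -0.38 at silking, and its interaction (1.94, adjusted p = 0.0329) was lost without any 1 of the 8 arrays (0.0591 to 0.112).

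Dehydrins protect cells that lose water. Of 4 tested probe sets in the dehydrin list 3 were called higher in RIL54, beside 7.99% higher of all probe sets. These 3 stand for 1 gene, dhn2 (gene 542251, chromosome 4). The one with the smallest p read 11.01, 10.71, 9.51 and 9.56 in RIL54 and 9.89, 9.59, 7.96 and 9.27 in RIL99 (1.02, SE 0.25, adjusted p = 0.0154). This call was lost without RIL99 tassel replicate 2 (0.06), with the 8 arrays alone and with array weights (0.0737 to 0.0754). dhn1, chosen after its values were seen, was at 6.74 and 8.53 in RIL54 at tassel, while the RIL99 tassel arrays and all 4 silking arrays were at 2.09 to 2.16. Its interaction was not called (adjusted p = 0.198), and its tassel difference of 5.50 (adjusted p = 0.0184) was lost without either RIL99 tassel array or RIL54 tassel replicate 2 (0.0817 to 0.122). Heat shock proteins went the other way at tassel, 4 lower and 0 higher of 11, beside 7.44% of all probe sets lower at that stage. The small heat shock protein hsp18f (gene 542723, chromosome 3) read 3.93 and 3.86 in RIL54 and 7.50 and 6.59 in RIL99 at tassel, and 3.01 to 3.41 on all 4 arrays at silking. The other 3, named after their values were seen, were hsp18a (-3.29, adjusted p = 0.0282), hsp22 (-2.91, adjusted p = 0.00789) and the chaperone hsp101 (-2.58, adjusted p = 0.00478). The hsp101 and hsp22 calls were lost without RIL99 tassel replicate 1, that of hsp22 also without RIL54 tassel replicate 1, and that of hsp18a without either RIL54 tassel array or RIL99 tassel replicate 1 (0.0502 to 0.202). The hsp18f call held in all 19 alternative settings.

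Of 36 probe sets for histones and chromatin factors 6 (of 5 genes) were lower in RIL54 and 1 higher, beside 7.98% and 7.99% of all probe sets. The median difference of that list was 0.07. For the cell cycle 2 of 7 were higher and 0 lower, beside 7.99% higher and 7.98% lower of all probe sets. hda101, a histone deacetylase (gene 541931, chromosome 4), read 9.35, 9.22, 9.83 and 9.71 in RIL54 and 10.36, 10.37, 10.57 and 10.44 in RIL99, 1.87-fold apart (-0.90, SE 0.09, adjusted p = 1.55e-05). hac106, a histone acetyltransferase (gene 542083, chromosome 7), read 3.86, 4.39, 4.26 and 4.27 in RIL54 and 5.32, 4.66, 6.77 and 6.82 in RIL99 (-1.70, SE 0.19, adjusted p = 4.17e-05), and -0.98 with low values raised to 5. pcna1, the sliding clamp of DNA replication (gene 542425, chromosome 5), was higher, at 6.63, 7.30, 6.50 and 6.84 against 4.54, 5.05, 5.65 and 5.38 (1.66, SE 0.24, adjusted p = 0.000508). The cyclin cycD2 (gene 541915, chromosome 4) differed by 1.35 at tassel (adjusted p = 0.00209) and 0.04 at silking (adjusted p = 0.994), with an interaction that was not called (-1.31, adjusted p = 0.0646). Its call over both stages (0.70, adjusted p = 0.0136) was lost without RIL54 tassel replicate 2 (0.0502). Of the cytosolic ribosomal proteins 1 of 23 probe sets was higher and 2 lower, beside 7.99% higher and 7.98% lower of all probe sets. Besides rpl30, rpl29 differed by -0.66 and RPL10 by 0.25 (adjusted p = 0.0229 and 0.0472). The other probe set of RPL10 was not called (0.21, adjusted p = 0.475). In 5 of the 11 settings that kept all 8 arrays the RPL10 call was lost (0.0532 to 0.159). The rpl29 call was lost without RIL54 tassel replicate 1, RIL99 tassel replicate 2, RIL99 silking replicate 1 or RIL54 silking replicate 2 (0.0514 to 0.0944), and the RPL10 call without any array but RIL54 tassel replicate 1 (0.0749 to 0.155). The median of the list was 0.21.

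Cytokinin genes were called in both directions, 2 higher and 3 lower of 17 probe sets, beside 7.99% higher and 7.98% lower of all probe sets. Lower were the type-A response regulators RR7, RR5 (gene 541631; -0.91, SE 0.23, adjusted p = 0.0182) and RR4 (-0.72, adjusted p = 0.0369), and the median of the list was -0.29. RR4 and cko3 were named after their values were seen, and the RR4 call was lost without any 1 of the 4 RIL99 arrays and without RIL54 tassel or silking replicate 2 (0.0661 to 0.125). Higher were the cytokinin oxidases cko2 (gene 542507, chromosome 3) and cko3, which degrade cytokinins, with a call at tassel and none at silking. cko2 read 9.85 and 8.59 at tassel in RIL54 and 3.77 and 4.68 in RIL99, a difference of 4.99 (adjusted p = 0.00189). At silking RIL54 read 8.67 and 7.68 and RIL99 9.14 and 8.72 (-0.75, adjusted p = 0.859). cko3 followed the same course, at 9.01 and 7.50 against 3.83 and 3.79 at tassel (4.44, adjusted p = 0.00219) and at 7.60 and 6.86 against 7.94 and 7.80 at silking. Both tassel calls held in all 19 alternative settings. The call of cko2 over both stages (2.12, adjusted p = 0.0334) was lost without either RIL99 tassel or silking array. It was also lost without RIL54 tassel or silking replicate 1, without a filter and with RNA amount as a covariate. The call of cko3 over both stages (1.90, adjusted p = 0.036) was lost without each array but RIL54 tassel replicate 2 (0.0513 to 0.11). The interactions of cko2 (-5.74, adjusted p = 0.0325) and cko3 (-5.08, adjusted p = 0.035) were lost without 6 and 7 of the 8 arrays (0.0524 to 0.131), RIL54 silking replicate 1 and RIL54 tassel replicate 2 being the exceptions for cko2 and RIL54 tassel replicate 2 for cko3. The RR5 call was lost without RIL99 tassel replicate 2, RIL54 tassel or silking replicate 2, or either RIL99 silking array (0.0517 to 0.0707).

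**Figure D3:**
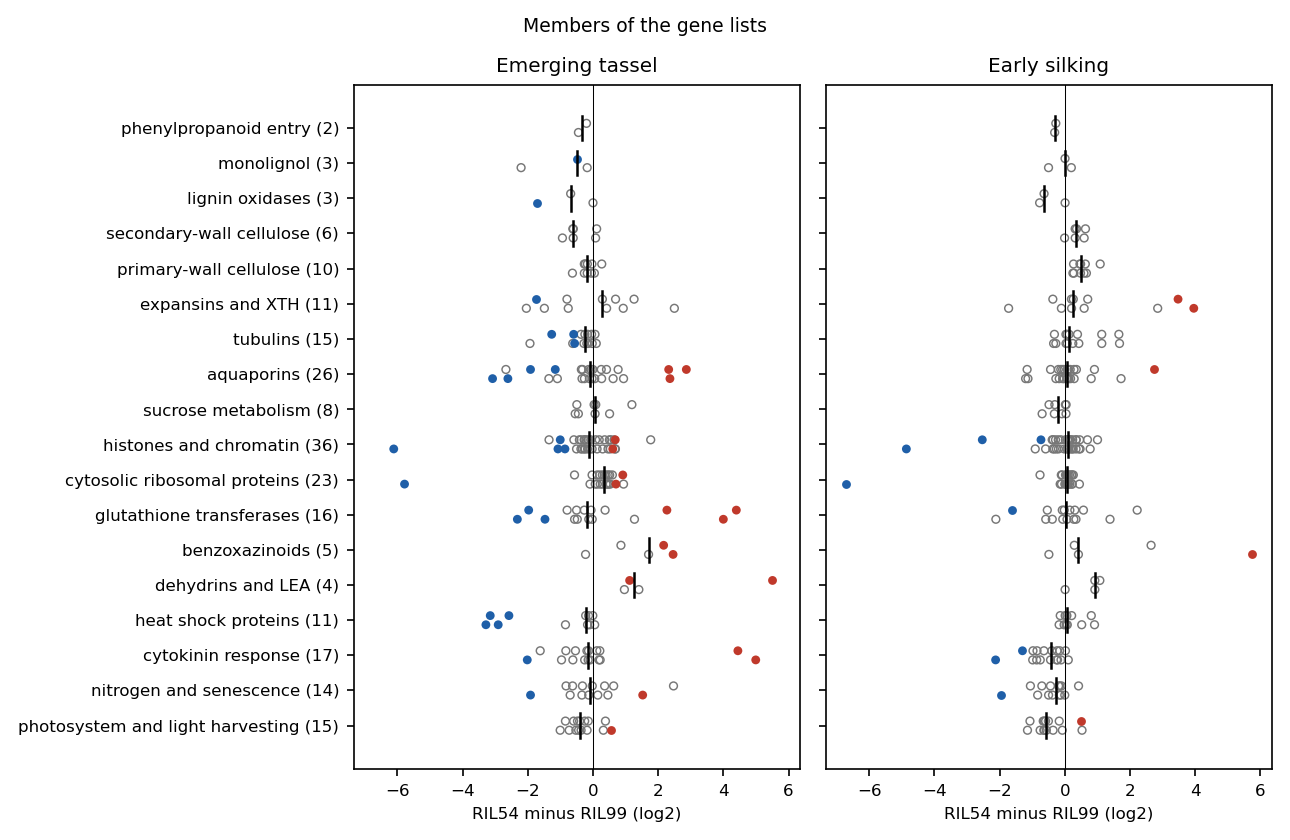
Differences between RIL54 and RIL99 (x axis, log2 units) for the tested probe sets of 18 gene lists (number in brackets) at emerging tassel (left) and early silking (right). Red and blue points were called higher and lower in RIL54, open circles were not called, and the black bar is the median of the list; the 4 blue heat shock points at tassel have no counterpart at silking.

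Of the other lists, that of photosystem and light-harvesting genes held 1 called probe set of 15, beside 16.0% of all probe sets. It stands for the ferredoxin fdx3 (gene 542276, chromosome 1), an electron carrier and not a light-harvesting protein. It was at 13.64, 13.70, 13.75 and 13.65 in RIL54 and 13.09, 13.17, 13.29 and 13.11 in RIL99 (0.52, SE 0.09, adjusted p = 0.00193). The other probe set of fdx3 was not called (0.42, adjusted p = 0.0858). The median of the photosystem and light-harvesting list was -0.53, opposite in sign to fdx3. In nitrogen metabolism 2 of 14 were lower, beside 7.98% of all probe sets. They were gln2 and gln5, a further glutamine synthetase (-0.60, adjusted p = 0.0288). The gln5 call was lost without RIL99 tassel replicate 2, RIL54 tassel replicate 2, RIL54 silking replicate 1 or either RIL99 silking array. It was also lost with the 8 arrays alone and with RNA amount as a covariate (0.0657 to 0.0701). Calls over both stages in further lists were RGP, a reversibly glycosylated polypeptide of wall synthesis (0.66, adjusted p = 0.0325), the kinesin krp15 (-0.65, 0.0309), the starch debranching enzyme zpu1 (-0.74, 0.0196) and a2 of anthocyanin synthesis (0.99, 0.0446). RGP was lost without replicate 2 of either line at tassel, either RIL54 silking array or RIL99 silking replicate 1, krp15 without each array but RIL54 replicate 2 of either stage, zpu1 without RIL99 replicate 1 of either stage or RIL54 silking replicate 2, and a2 without any 1 of the 8 (0.0568 to 0.141). The zpu1 call was also lost with low values raised to 5 (-0.27, adjusted p = 0.194) and with the 8 arrays alone (0.103). With the 8 arrays alone krp15 (0.0565) and RGP were lost as well. RGP was also lost without a filter, with array weights and with RNA amount as a covariate (0.0524 to 0.0757 with the 8 arrays alone included). The a2 call was also lost with quantile normalization and without a filter (0.053 to 0.0829). No probe set was called over both stages by limma in 14 of the 34 lists, where 8 of 67 had an unadjusted p under 0.05. Over all lists 307 probe sets were tested, and 27 were higher and 27 lower in RIL54, which is 17.6% beside 16.0% of all tested probe sets.

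The lines differed more at emerging tassel than at early silking in number of calls. At tassel 1842 probe sets were called (16.7%), 1021 higher (9.25%) and 821 lower (7.44%) in RIL54. At silking 551 were called (4.99%), 271 higher (2.46%) and 280 lower (2.54%). Both stages called 362 probe sets, 19.7% of those at tassel and 65.7% of those at silking, and 356 of the 362 had the same sign. Whether or not called at the other stage, 77.1% of tassel calls had the same sign at silking and 92.9% of silking calls the same sign at tassel. The difference between the stages was tested as an interaction, which called 247 probe sets (2.24%), 89 with a higher RIL54 minus RIL99 difference at silking (0.807%) and 158 with a lower one (1.43%). Of these, 204 were further apart at tassel and 43 at silking, and 130 had opposite signs at the 2 stages. The interaction count ranged from 72 to 341 when single arrays were left out, and it was more than 1.5 times smaller without RIL99 tassel replicate 1 (143) or 2 (128), RIL99 silking replicate 1 (85) or 2 (72) or RIL54 silking replicate 2 (107). The line count ranged from 1105 to 1958, with the lowest values without RIL99 silking replicate 1 (1105) or 2 (1150). The tassel count was 975 and 999 without RIL99 tassel replicates 1 and 2, and the silking count 300 and 324 without RIL99 silking replicates 1 and 2.

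**Figure D4:**
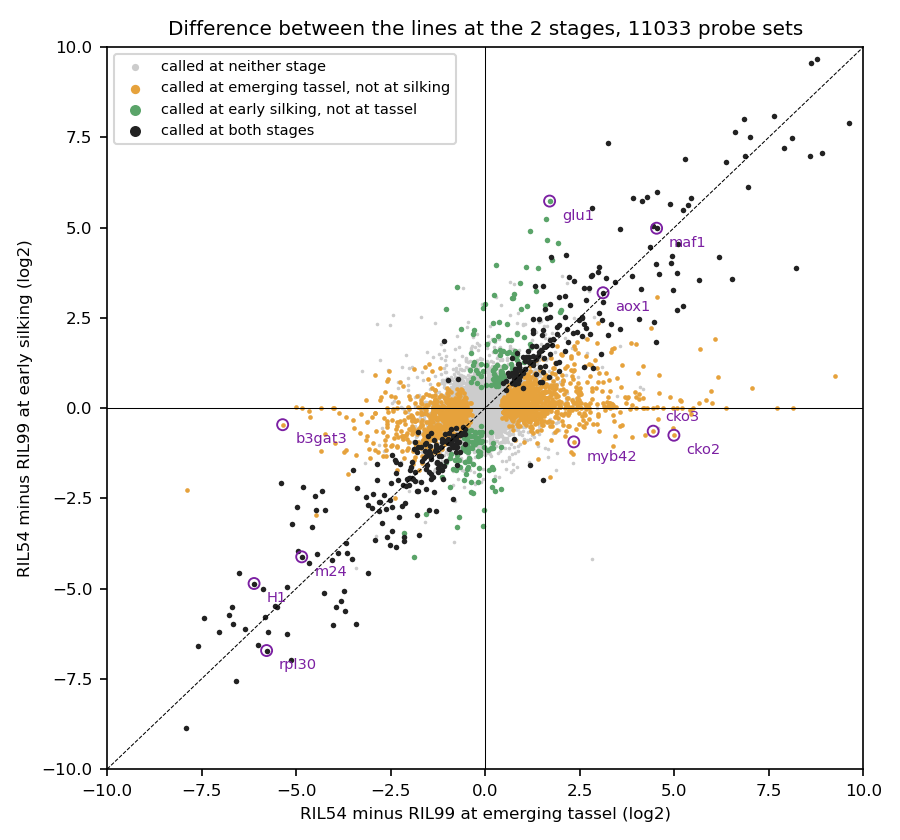
Difference between RIL54 and RIL99 at emerging tassel (x axis) and early silking (y axis), both in log2 units, for 11033 probe sets, coloured by the stage at which they were called; the dashed line marks equal differences and named genes are circled. Probe sets called at both stages (black) follow the dashed line, while many called at tassel (orange), such as b3gat3, cko2 and cko3, lie near 0 at silking.

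Genes were named for the interaction by the smallest p in each direction. b3gat3 fell from 7.90 and 7.43 to 2.55 and 3.0 in RIL99 and stayed near 2.3 in RIL54, an interaction of 4.90 (SE 0.23, adjusted p = 4.87e-07; 2.66 with low values raised to 5). hsp18f, with the values given above, had an interaction of 3.36 (SE 0.49, adjusted p = 0.00542; 2.05 with low values raised to 5). In both genes RIL99 was high at tassel and both lines were low at silking. der2, a derlin of protein quality control in the endoplasmic reticulum (gene 606471, chromosome 5), was alike at tassel, at 8.99 and 8.68 against 9.03 and 9.01, and apart at silking, at 8.67 and 8.48 against 7.72 and 7.46. The der2 interaction of 1.16 (SE 0.22, adjusted p = 0.0183) was lost without either RIL99 tassel array or RIL99 silking replicate 2 (0.0554 to 0.0922) and with the 8 arrays alone (0.111).

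In the other direction, myb42, which in maize encodes a MYB repressor of lignin synthesis (gene 100101513, chromosome 4), read 6.07 and 6.56 in RIL54 and 3.84 and 4.10 in RIL99 at tassel. At silking it read 8.29 and 7.47 in RIL54 and 8.73 and 8.91 in RIL99. It was higher in RIL54 at tassel by 2.34 (adjusted p = 0.000672), rose by 1.57 in RIL54 and 4.85 in RIL99, and had an interaction of -3.28 (SE 0.49, adjusted p = 0.00694). WPK1 (gene 606465, chromosome 1) read 10.07 and 9.10 in RIL54 and 7.27 and 6.84 in RIL99 at tassel, and 9.70 and 9.31 against 9.44 and 8.81 at silking (-2.15, SE 0.42, adjusted p = 0.022). LOC542227 (chromosome 1) had an interaction of -1.78 (adjusted p = 0.0171) and MMT1, a methionine S-methyltransferase (gene 541786, chromosome 8), one of -1.67 (adjusted p = 0.0293). The other probe set of LOC542227 had an interaction of -0.70 that was not called (adjusted p = 0.76). MMT1 was higher in RIL54 at tassel, at 8.11 and 8.28 against 7.42 and 7.41, and its silking arrays were at 6.12 and 5.99 against 7.08 and 6.81. The WPK1 call was lost without RIL99 tassel replicate 2, RIL99 silking replicate 1 or RIL54 silking replicate 2 (0.0823 to 0.102), and the LOC542227 call without RIL99 tassel or silking replicate 2 (0.0605 to 0.0829), and both were lost with the 8 arrays alone (0.114 to 0.148). The MMT1 call held without RIL54 tassel or silking replicate 1 and was lost without each other array (0.0687 to 0.122). The calls of b3gat3, hsp18f and myb42 held in all 19 alternative settings.

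**Figure D5:**
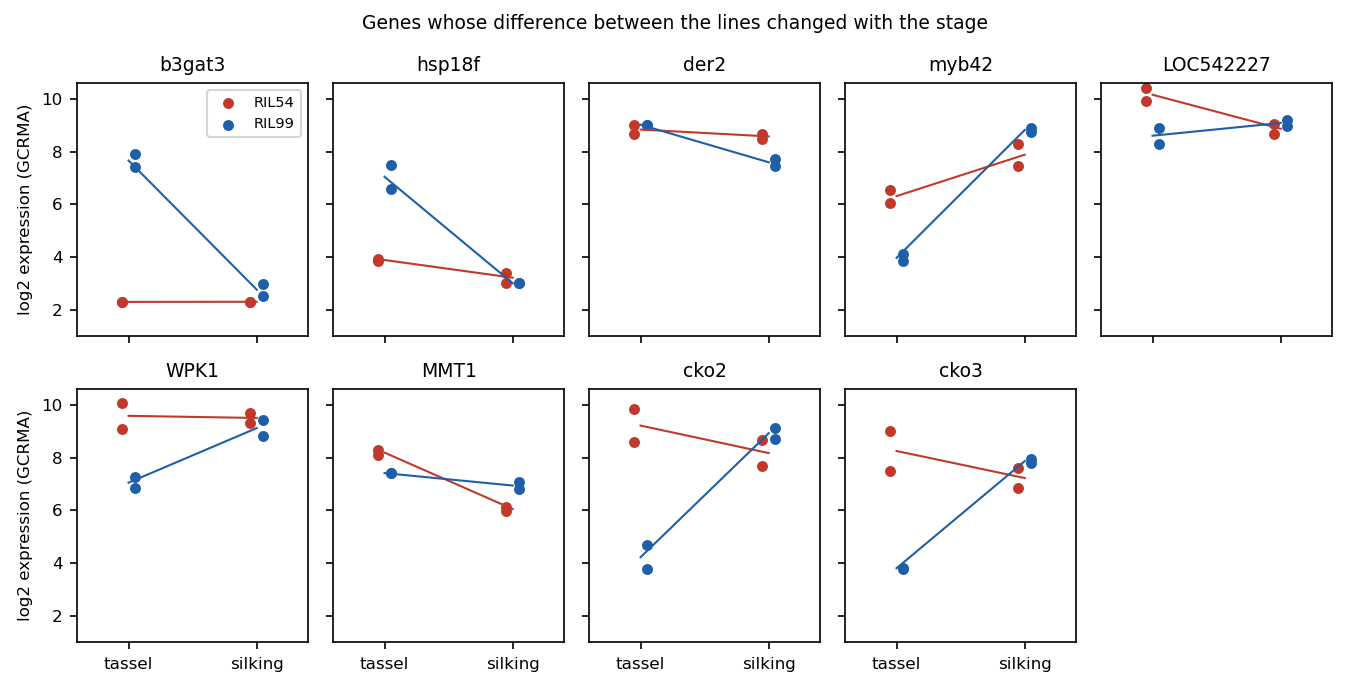
Log2 expression (y axis) at emerging tassel and early silking in RIL54 (red) and RIL99 (blue) for the 7 genes named for the interaction and for cko2 and cko3, with a point for each array and a line through the means. In b3gat3 and hsp18f RIL99 is high at tassel, while in myb42, WPK1, cko2 and cko3 RIL99 is low at tassel and near RIL54 at silking.

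To see whether the tassel difference followed the change with stage, it was set against the change from tassel to silking in RIL39, RIL71 and RIL118, which share no array with it. Across the 11033 probe sets Pearson's r was 0.01 and Spearman's rho 0.15 at tassel, and -0.10 and -0.06 at silking. Genes are not independent replicates, so these are descriptions. The 63 probe sets that rose at least 4-fold in those lines had a median tassel difference of 0.49 and 30.2% of them were called at tassel, 15 higher and 4 lower. The 332 that fell at least 4-fold had a median of 0.29, with 44 higher and 17 lower. Among the 9283 that changed less than 2-fold, 15.7% were called at tassel and the median was -0.02.

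By chromosome of the RefSeq gene table of Zm-B73-REFERENCE-NAM-5.0, differences were spread over the genome. With 1 probe set for each of 779 placed genes, 125 were called (16%), 62 higher and 63 lower. The share ran from 8 of 75 (10.7%) on chromosome 7 and 8 of 72 (11.1%) on chromosome 6 to 28 of 136 (20.6%) on chromosome 1 and 12 of 59 (20.3%) on chromosome 9. Each chromosome carried calls in both directions.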

How the data were processed

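The authors deposited log2 expression values, made with GCRMA per the submitters' processing notes, which corrects background, normalizes between arrays and summarises probes. No version was given, and the labels record an amplification of the RNA. Values ran from 1.37 to 15.2, and low values cluster near the lower end, where the size of a difference cannot be read as a ratio of RNA. Control probe sets (179) were left out, and the filter set aside 6522 of 17555 maize probe sets.

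The fit (limma 3.58.1, R 4.3.3) took all 20 arrays, gave each of the 10 line and stage groups its own mean and had no replicate block, so all groups share a spread with 10 residual and 2.37 prior degrees of freedom. Contrasts were RIL54 minus RIL99 over both stages, at each stage, and the interaction (the silking minus the tassel difference). P-values were adjusted over all 11033 tested probe sets. The number of arrays limits the precision. RIL118, whose replicates disagree at some probe sets, enters the shared spread.

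Genes were named from the platform annotation (1452 probe sets with 1 gene, 1 with several, 16102 with none), and 1060 of 1108 gene IDs were found in the RefSeq table. Synonyms served as names where symbols were placeholders. Named genes were those of the largest difference or smallest p under the rules given beside them, up to 3 called members of a list by smallest p, the lignin genes whether called or not, and the 2 largest unlisted probe sets in each direction. For the interaction these were the 4 smallest p in each direction, of which 1 is not reported here. The arrays, the 34 gene lists and the rules were chosen with earlier results of these data known. Where 1 array of a group was left out, the lone array was taken to have the spread of the remaining groups. Alternatives were other normalizations, filters, array sets, moderation, weights, a covariate for RNA amount, a replicate block and leaving out each of the 8 arrays; those for single stages of list members were added after seeing the data. Figures were drawn with matplotlib.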

Additional observations from a re-analysis of the deposited data

Results flagged for a closer look

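The difference between RIL54 and RIL99 was not the same at emerging tassel and early silking for 247 probe sets, by limma's interaction test after adjustment over all tested probe sets. Those named by smallest p are b3gat3 (4.90), hsp18f (3.36) and der2 (1.16), where RIL54 minus RIL99 was higher at silking than at tassel, and myb42 (-3.28), LOC542227 (-1.78), WPK1 (-2.15) and MMT1 (-1.67), where it was the reverse. The other probe set of LOC542227 was not called (-0.70, adjusted p = 0.76). Among others, the interaction was also called for ACO, cko2, cko3 and gst5, given above, for the H1 probe set described (1.25) and for hac106 (-1.67). All are interactions on the log2 scale. No group held enough arrays to test a single array as an outlier.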

How the results depend on the processing

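Of 76 counts under alternatives, 13 were more than 1.5 times smaller than reported, 6 of them for the interaction, 3 at silking, 2 at tassel and 2 over both stages. With the 8 arrays of RIL54 and RIL99 alone, the silking count was 358 and the interaction count 113. Leaving out single arrays gave ranges of 1105 to 1958 over both stages, 975 to 1905 at tassel, 300 to 619 at silking and 72 to 341 for the interaction. With a replicate block the counts were 1618, 1721, 518 and 226 in that order. The correlation of replicate deviations was -0.436 to 0.495 over the 6 pairs of these groups. Between the 2 lines it was -0.112 at tassel and 0.495 at silking. The labels do not pair arrays by replicate number, and whether these correlations reflect a pairing was not tested. With RNA amount as a covariate the counts were 1438, 1397, 530 and 218. Of 60 named calls, 37 held in every one of the 19 settings and 23 were lost in at least 1, and 3 of 7 named results without a call gained one. The 60 calls and 7 results are those that the rules for naming gave. They leave out calls at single stages, the interactions of ACO, cko2, cko3 and gst5, and calls of genes named after their values were seen. Several of the calls left out were lost in some setting, as stated beside them. None of the 60 calls changed direction. With low values raised to 5, 14 named differences moved by over 1.5 times, and those of gar2 (1.54, adjusted p = 0.196), TIP4-4 (0.17, adjusted p = 0.0884) and zpu1 (-0.27, adjusted p = 0.194) were no longer called. The others are given with the genes. With 2 arrays in a group and signal near background in many probe sets, small differences could not be resolved.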
